A study of Mus musculus with 4 samples.

Results

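Interferon-responsive microglia are microglia that carry messages of the type I interferon program while keeping the messages of resting microglia. Here they were 101 of 36564 gated microglia, themselves taken from 61371 cells of the mouse cortex that passed quality bounds of at least 500 unique molecular identifiers (UMIs, each standing for a captured mRNA molecule) and at most 10% of UMIs from mitochondrial genes. A cell was gated as a microglia when P2ry12 made up at least 0.15% of its UMIs and Apoe less than 1%, when the border macrophage genes Lyve1, F13a1, Cd163 and Cbr2 summed to at most 2 UMIs, and when Ccl3 and Ccl4 summed to at most 5 UMIs. A gated cell was a member when Ifit2, Ifit3, Isg15, Rsad2 and Cxcl10 summed to at least 5 UMIs. The other 36463 gated cells are called other gated microglia.

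The series asked how CD11b-positive cells differ when astrocytes overexpress Hevin, a secreted protein encoded by Sparcl1 that promotes excitatory synapses. All mice were wild type, and as newborns they had received an adeno-associated virus in the cortex that carried either Hevin or mCherry, a fluorescent control protein tethered to the membrane, under GfaABC1D, a promoter used to restrict expression to astrocytes. Cortices were taken on postnatal day 15 and dissociated with actinomycin D, triptolide and anisomycin, which block transcription and translation; CD11b-positive cells were then selected on magnetic columns and up to 40000 of them entered a PIPseq reaction. There were 2 Hevin and 2 mCherry libraries. The number of animals behind each is not given in the sources used here, so p-values measure the spread between these libraries, which may be technical in part.

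Type I interferons bind a receptor made of IFNAR1 and IFNAR2, whose kinases JAK1 and TYK2 activate transcription factors of the STAT family. Together with IRF9 these enter the nucleus and bind the interferon-stimulated response element, a repeat of GAAA with a short spacer, in front of genes that block viral replication, sense foreign nucleic acid or restrain the signal itself. Microglia in this state are known from the developing, aged, injured and infected brain, and in the developing mouse cortex they have been linked to the engulfment of whole neurons.

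The promoters of the genes that define the state show this repeat. The sequences below are the 250 bases before the start of 4 of the 5 genes of the rule and of Ifit1, the gene outside the rule with the highest ratio, from RefSeq on GRCm38.p6, 5′ to 3′ on the strand of the gene; capitals mark GAAANNGAAA or its reverse complement TTTCNNTTTC, and overlapping matches are joined. Isg15 lies at chr4:156200819-156201068 on the minus strand, Ifit3 at chr19:34583279-34583528 on the plus strand, Rsad2 at chr12:26456453-26456702 on the minus strand, Cxcl10 at chr5:92348890-92349139 on the minus strand and Ifit1 at chr19:34640639-34640888 on the plus strand.
Isg15: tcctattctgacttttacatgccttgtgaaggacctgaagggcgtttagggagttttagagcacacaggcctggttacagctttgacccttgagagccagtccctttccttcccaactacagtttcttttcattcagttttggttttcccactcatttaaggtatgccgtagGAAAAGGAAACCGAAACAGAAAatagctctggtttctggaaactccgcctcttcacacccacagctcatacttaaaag
Ifit3: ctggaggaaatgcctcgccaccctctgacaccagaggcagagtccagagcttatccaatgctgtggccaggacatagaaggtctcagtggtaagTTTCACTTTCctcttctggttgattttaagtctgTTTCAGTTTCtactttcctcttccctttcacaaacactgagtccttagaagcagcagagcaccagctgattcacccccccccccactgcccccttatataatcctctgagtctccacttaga
Rsad2: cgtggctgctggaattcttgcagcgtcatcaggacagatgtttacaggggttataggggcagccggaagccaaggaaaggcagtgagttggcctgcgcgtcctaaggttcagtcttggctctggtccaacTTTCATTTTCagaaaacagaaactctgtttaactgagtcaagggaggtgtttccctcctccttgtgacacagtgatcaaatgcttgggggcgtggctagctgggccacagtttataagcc
Cxcl10: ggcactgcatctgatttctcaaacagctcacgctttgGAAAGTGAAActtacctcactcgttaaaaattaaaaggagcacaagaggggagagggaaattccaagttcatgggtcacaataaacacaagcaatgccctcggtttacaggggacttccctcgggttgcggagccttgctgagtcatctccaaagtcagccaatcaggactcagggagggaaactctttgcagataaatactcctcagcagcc
Ifit1: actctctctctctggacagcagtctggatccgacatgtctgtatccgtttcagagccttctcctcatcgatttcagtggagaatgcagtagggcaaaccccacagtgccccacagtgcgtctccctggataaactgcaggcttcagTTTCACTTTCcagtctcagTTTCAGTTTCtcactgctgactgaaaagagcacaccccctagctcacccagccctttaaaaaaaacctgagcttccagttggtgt
Counted from the start of the gene, the first bases of the matches lie at -78, -72 and -66 in Isg15, where 3 of them overlap, at -156 and -122 in Ifit3, at -120 in Rsad2, at -213 in Cxcl10 and at -104 and -85 in Ifit1. The same window of Ifit2 held no match to these letters. A match is a run of letters and not a mapped binding site. It occurred in 2.98% of all 32851 promoters in the table.

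The libraries held between 49781430 and 67832685 UMIs each, and 28 to 202 barcodes per library were dropped. The lowest UMI total of a deposited barcode was 965 and 2178 in the Hevin libraries and 2038 and 2993 in the mCherry libraries, so libraries differed in how shallow a barcode could be. Pairs of libraries shared 1 to 7 barcodes, and no member barcode was shared. Sex-linked genes differed between libraries of a group: Xist, on the inactive X, had 1.19 and 1210 CPM in the Hevin libraries and 539.5 and 1046 CPM in the mCherry libraries (counts per 1000000 UMIs, here over all kept cells), and the Y-linked gene Uty had 42.8 and 1.08 CPM in the Hevin libraries and 22.9 and 0.846 CPM in the mCherry libraries. Sparcl1 in these CD11b-selected cells was 86.4 and 78.4 CPM in the Hevin libraries and 122.9 and 91.35 CPM in the mCherry libraries; the virus was made for astrocytes, so this does not check the labels.

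Members were rare in every library. They numbered 9 and 22 cells in the Hevin libraries and 36 and 34 cells in the mCherry libraries. As a share of gated microglia they made up 0.138% (exact Clopper-Pearson 95% interval 0.0632% to 0.262%) in Hevin replicate 1, 0.386% (0.242% to 0.584%) in Hevin replicate 2, 0.238% (0.167% to 0.329%) in mCherry replicate 1 and 0.3685% (0.255% to 0.5145%) in mCherry replicate 2. The highest and the lowest share both belonged to Hevin libraries, so the groups overlapped. The mean was 0.262% ± 0.1755 for Hevin and 0.303% ± 0.0923 for mCherry (SD, n = 2 libraries each), a difference of -0.0410 percentage points with an exact two-sided permutation p of 1.0, where 2 libraries against 2 cannot go below 0.333. The intervals cover counting error only.

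The direction of this difference was not stable. Hevin replicate 1 was the shallowest library, with a median of 2061 UMIs in its other gated microglia against 3302 to 3949 UMIs in those of the other libraries, and a bound in raw UMIs admits fewer shallow cells. After each gated cell was thinned to 2000 UMIs, which left out 3089 cells of Hevin replicate 1 and none elsewhere, the shares were 0.117% and 0.1405% in the Hevin libraries and 0.0925% and 0.141% in the mCherry libraries, a difference of 0.0119 points (exact permutation p = 1.0). Among cells with at least 3000 UMIs the shares were 0.346% and 0.3135% in the Hevin libraries and 0.288% and 0.370% in the mCherry libraries. Over all kept cells, of which gated microglia made up a smaller part in the Hevin libraries, members were 0.0458% and 0.169% in the Hevin libraries and 0.202% and 0.313% in the mCherry libraries (exact permutation p = 0.333, the smallest the design allows). edgeR's quasi-likelihood test on the cell numbers of 7 classes gave a log2 fold change of -1.33 ± 0.89 (SE) with an adjusted p of 0.1555, and in the same fit other gated microglia had -1.145 ± 0.271 (SE) with an adjusted p of 0.00196.

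**Figure D1:**
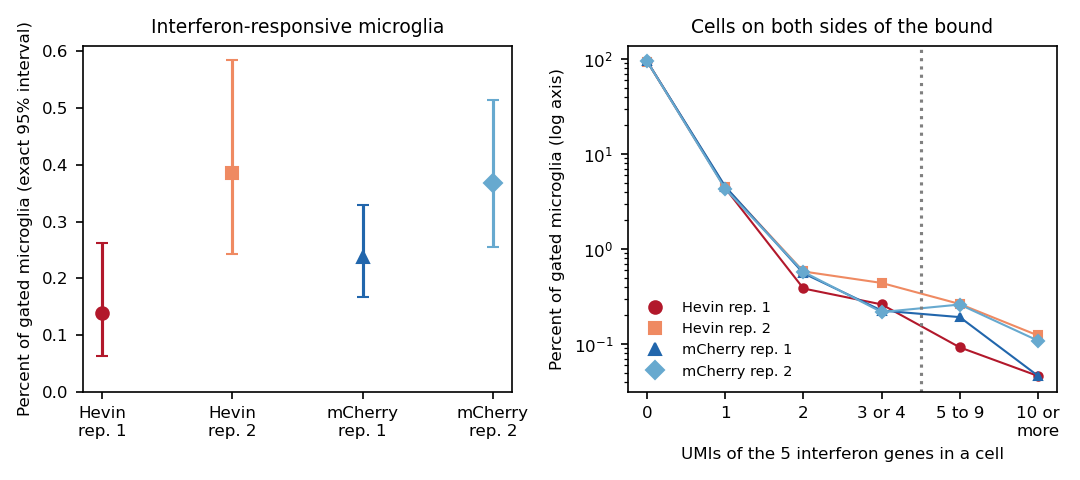
Left, percent of gated microglia that were interferon-responsive in each library, with exact 95% intervals; the 2 Hevin libraries, at 0.138% and 0.386%, enclose both mCherry libraries. Right, percent of gated microglia (log axis) by the number of UMIs of the 5 interferon genes in a cell, where the dotted line marks the bound of 5 UMIs and each line is a library.

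The bound cut through a continuous tail. Of the gated microglia 34551 had no UMI of the 5 genes (94.5%) and 1621 had 1 (4.43%), whereas 60 cells had 3 and 36 had 4, just outside the bound, and 24 had 5 and 21 had 6, just inside it. The median member held 7 UMIs of these genes, 27 members held at least 10 and 13 at least 20. The richest cell had 17 UMIs in Hevin replicate 1, 22 in Hevin replicate 2, 46 in mCherry replicate 1 and 78 in mCherry replicate 2.

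Members held the defining markers of microglia. P2ry12, the purine receptor of resting microglia that the gate used, had 3533 and 3513 CPM in members of the Hevin libraries and 3871 and 4105 CPM in members of the mCherry libraries, where CPM is taken on the counts summed over the cells of a class in a library. In other gated microglia it had 4334 and 4803 CPM in the Hevin libraries and 5417 and 5498 CPM in the mCherry libraries, so members were lower in each library, by less than 2-fold. Tmem119, a membrane protein typical of microglia, had 1307 and 1552 CPM in Hevin members and 1730 and 1707 CPM in mCherry members, against 1533 and 1697 CPM in other Hevin and 1900 and 2002 CPM in other mCherry microglia. Sall1, the transcription factor of microglial identity, had 106 and 253 CPM in Hevin members and 236.5 and 402 CPM in mCherry members, against 229 and 295.5 CPM in other Hevin and 294 and 333 CPM in other mCherry microglia. None of the 17 homeostatic microglial genes, among them Cx3cr1 and Csf1r, was 2-fold higher or lower in all 4 libraries, and their median log2 ratio of members to other gated microglia was -0.18, close to -0.22 for all genes at the minimum level. Depth was higher in members of each library, most so in Hevin replicate 1, with medians of 3316 and 3343.5 UMIs in Hevin members and 3746 and 4441.5 UMIs in mCherry members, against 2061 and 3302 UMIs in other Hevin and 3257.5 and 3949 UMIs in other mCherry microglia.

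Ratios of members to other gated microglia are a description and carry no test, since the rule chose the members on 5 genes of the same cells. A gene was counted when its mean was at least 10 CPM in either class and its ratio, with 0.5 CPM added to both, was at least 2-fold in the same direction in all 4 libraries. Of 9122 genes at that level 117 were higher in members (1.28%) and 61 were lower (0.669%). Over all members together 113 of the 117 higher genes had at least 10 UMIs. In single libraries some rested on less: Cmpk2, Ifi205, Daxx and Gbp8 had 1 UMI in Hevin replicate 1, and Ifi208 had 1 in each Hevin library. The lower genes were poorly covered, 57 of 61 having at most 5 UMIs in all members together. Among all genes 4434 had no UMI in at least 1 of the member libraries, and a bound of at least 10 UMIs of the 5 genes gave 817 lower genes. Arl15 and Snx24 were the 2 lower genes with at least 10 UMIs. In Hevin replicate 1 a single UMI in members was worth 35.3 CPM, against 12.03 CPM in Hevin replicate 2 and 6.76 and 6.28 CPM in the mCherry libraries. With summed counts, fewer cells that express a gene and less RNA per cell cannot be told apart.

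The 5 genes that chose the members show how far apart the classes were set. Isg15, a ubiquitin-like modifier that is joined to proteins, had 989 and 1336 CPM in Hevin members and 1149 and 1011 CPM in mCherry members, against 14.4 and 11.8 CPM in other Hevin and 11.0 and 9.99 CPM in other mCherry microglia. Ifit3, a protein of the complex that binds foreign RNA caps, had 1095 and 710 CPM in Hevin members and 574 and 647 CPM in mCherry members, against 5.69 and 4.31 CPM in other Hevin and 3.67 and 2.51 CPM in other mCherry microglia. Rsad2, the enzyme viperin that makes a chain-terminating nucleotide, had 106 and 265 CPM in Hevin members and 203 and 257 CPM in mCherry members. These genes were high in every member library because the rule asked for them.

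Members differed in which of the 5 genes they carried. Isg15 was found in 96 of the 101 cells, Ifit3 in 82, Rsad2 in 41, Ifit2 in 37 and Cxcl10 in 19. Of the members 13 carried only 1 of the 5 genes, 30 carried 2, 37 carried 3, 14 carried 4 and 7 carried all 5. Isg15 had the most UMIs of the 5 in 58 cells, Ifit3 in 30, Cxcl10 in 8, Ifit2 in 3 and Rsad2 in 2. Each member was counted under 1 gene, so a tie would be hidden. Cxcl10, the ligand of CXCR3 that draws T cells, was concentrated in few cells: 10 members held 91.7% of its 218 UMIs and the richest held 44, whereas the 10 members richest in Isg15 held 26.0% of that gene's UMIs. Members with Cxcl10 had a median of 16.2 UMIs of the other effector genes per 1000, and members without it 13.1.

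Genes that the rule did not name followed in the same cells. Of 42 antiviral effector genes on a list that leaves out the 5 genes, 40 were in the files and 37 reached the minimum level; 33 of these were at least 2-fold higher in members in all 4 libraries, none was lower, and their median log2 ratio was 3.36. Mx1 and Mx2 were not analysed here. The list was chosen with results of these cells known, so it is not independent evidence of its direction. Per cell, the 40 genes gave a median of 13.4 UMIs per 1000 in members (range 2.19 to 31.9) and 2.37 in other gated microglia (0 to 30.5). The median member had at least 1 UMI of 19 of the 40 genes and the median other cell of 4, at median depths of 3830 and 3337 UMIs.

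The effector level was higher in cells with more UMIs of the 5 genes. Cells with none of those UMIs had a median of 2.35 effector UMIs per 1000, cells with 1 or 2 had 2.75, cells with 3 or 4 had 8.11, members with 5 to 9 had 12.04 and members with 10 or more had 18.4. The 96 cells with 3 or 4 had medians of 8.48 and 8.875 in the Hevin libraries and 6.495 and 8.86 in the mCherry libraries, in each library below the median of members and above that of other gated microglia. Among other gated microglia 36 cells (0.0987%) reached the members' median, and 4 members lay below 4.85 per 1000, the 95th percentile of the other gated microglia.

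**Figure D2:**
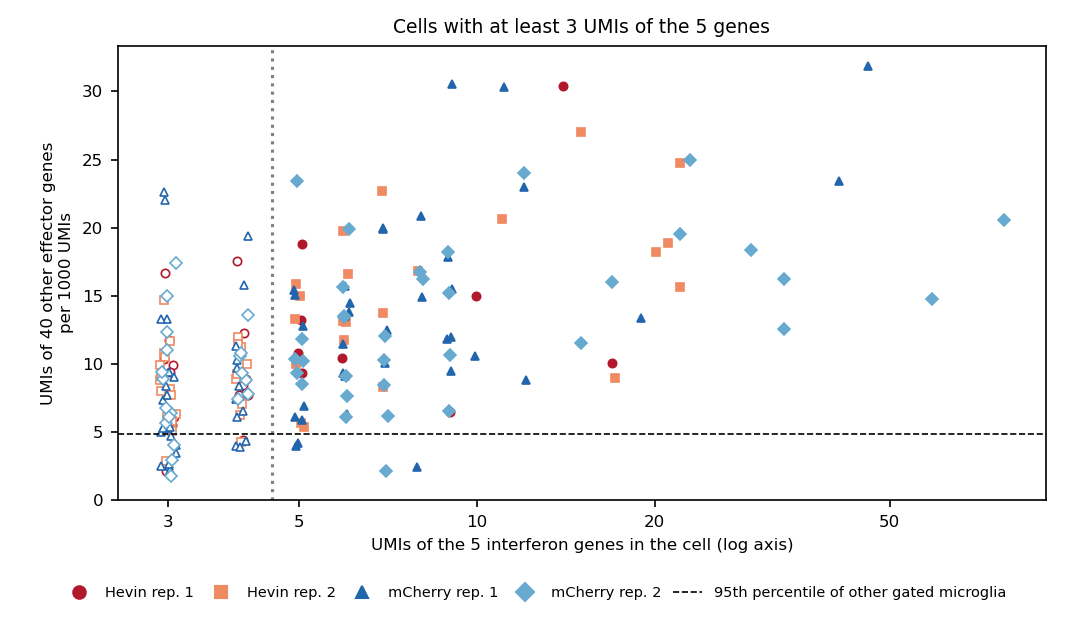
UMIs of the 40 effector genes per 1000 UMIs of a cell (vertical) against the UMIs of the 5 interferon genes (log axis), for gated microglia with at least 3 UMIs of those 5 genes; filled symbols are members, open symbols are cells below the bound of 5 UMIs (dotted line), and symbols mark the library. Most open symbols lie above the dashed line at 4.85, the 95th percentile of all other gated microglia.

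Among effectors, Ifit1, the cap-binding partner of Ifit3, had 212 and 168 CPM in Hevin members and 142 and 195 CPM in mCherry members, against 0.926 and 0.931 CPM in other Hevin and 0.960 and 0.964 CPM in other mCherry microglia. Bst2, the tether that holds budding virions on the cell surface, had 1802 and 1901 CPM in Hevin members and 1804 and 1381 CPM in mCherry members, against 343 and 269 CPM in other Hevin and 183 and 178.5 CPM in other mCherry microglia. Ifitm3, which blocks the fusion of viral and endosomal membranes, had 636 and 1263 CPM in Hevin members and 1304 and 960 CPM in mCherry members, against 45.3 and 41.9 CPM in other Hevin and 35.5 and 26.9 CPM in other mCherry microglia. All 3 genes were higher in members in every library, but Bst2 was readily detected in other gated microglia, whereas Ifit1 was close to absent there.
Eif2ak2, the kinase PKR that stops translation, had 247 and 409 CPM in Hevin members and 250 and 339 CPM in mCherry members, against 52.2 and 57.7 CPM in other Hevin and 50.2 and 52.2 CPM in other mCherry microglia. The synthetases of 2′-5′ oligoadenylate also differed: Oas1a had a median log2 ratio of 4.38, Oas2 one of 3.12 and the related Oasl2 one of 5.11, and Oas1a and its near copy Oas1g may share reads, as may Ifit3 and Ifit3b. Lgals9, Isg20, Ifi35 and Pnpt1 were the 4 effector genes at the minimum level that were not 2-fold in every library. Isg20, a nuclease, had no UMI in the 9 cells of Hevin replicate 1 and 192.5 CPM in Hevin replicate 2, with 149 and 87.9 CPM in mCherry members, against 2.51 and 2.11 CPM in other Hevin and 1.99 and 2.05 CPM in other mCherry microglia.

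Sensors of nucleic acid were divided. Of the 13 sensor genes at the minimum level 8 were higher in members, none was lower, and the median log2 ratio was 2.64. Zbp1, a sensor of left-handed nucleic acid that can start cell death, had 177 and 192.5 CPM in Hevin members and 94.6 and 182 CPM in mCherry members, against 3.57 and 2.60 CPM in other Hevin and 1.43 and 1.24 CPM in other mCherry microglia. Ddx58, which encodes the RNA sensor RIG-I, had 106 and 84.2 CPM in Hevin members and 108 and 100.4 CPM in mCherry members, against 16.6 and 17.15 CPM in other Hevin and 16.6 and 15.8 CPM in other mCherry microglia. The sensors Aim2, Tlr7, Sting1, Cgas and Mavs were not 2-fold in every library. Sting1, the adaptor that relays the sensing of cytosolic DNA, had 177 and 373 CPM in Hevin members and 324 and 282.5 CPM in mCherry members, against 246 and 255 CPM in other Hevin and 292 and 267 CPM in other mCherry microglia.

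Of 10 transcription factors 4 were higher in members, among them Stat2, Irf7 and Nlrc5. Irf7, the factor that amplifies interferon production, had 141 and 313 CPM in Hevin members and 236.5 and 213 CPM in mCherry members, against 6.48 and 6.47 CPM in other Hevin and 3.50 and 2.89 CPM in other mCherry microglia. Irf9, the DNA-binding partner of the STAT proteins, had 35.3 and 48.1 CPM in Hevin members and 74.3 and 100.4 CPM in mCherry members, against 36.5 and 36.2 CPM in other Hevin and 35.1 and 35.7 CPM in other mCherry microglia, so it was 2-fold in the mCherry libraries alone, and in Hevin replicate 1 it rested on a single UMI. Irf3, Irf5 and Irf8 had median log2 ratios of -0.17, 0.36 and 0.08.

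Of 4 feedback inhibitors Usp18 and Socs1 were higher in all 4 libraries. Usp18, which removes ISG15 from proteins and blocks the receptor, had 212 and 156 CPM in Hevin members and 135 and 144 CPM in mCherry members, against 4.76 and 4.26 CPM in other Hevin and 3.09 and 3.14 CPM in other mCherry microglia. Socs1, an inhibitor of JAK kinases, rested on 7 UMIs in 6 members.

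The receptors and their kinases did not differ in this way, and no interferon gene reached the minimum level. None of the 7 genes at the minimum level was 2-fold in every library, and their median log2 ratio was -0.24. Ifnar1 had 35.3 and 12.03 CPM in Hevin members and 20.3 and 43.9 CPM in mCherry members, against 46.8 and 49.7 CPM in other Hevin and 43.4 and 45.0 CPM in other mCherry microglia. Ifnar2 had 141 and 229 CPM in Hevin members and 189 and 207 CPM in mCherry members, against 164 and 158 CPM in other Hevin and 154 and 151.5 CPM in other mCherry microglia. The 18 type I interferon genes in the files had 34 UMIs in all 61371 kept cells, and Ifng had none. Of the 34 UMIs 18 lay in other gated microglia and 1 in a member. Ifnb1 had 8 of them: 1 in a member, 2 in Apoe-high cells that held at least 5 UMIs of the 5 interferon genes, 4 in microglia that the bound on Ccl3 and Ccl4 had kept out of the gate, and 1 in a cell with border macrophage genes.

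Genes typical of interferon gamma were higher in part. Of 17 such genes 11 reached the minimum level and 6 were higher, with a median log2 ratio of 2.43. They were the guanylate-binding proteins Gbp2, Gbp3 and Gbp7 and the immunity-related GTPases Irgm1, Irgm2 and Iigp1, which attack the vacuoles of parasites and which type I interferon also induces. Tgtp1 and Tgtp2, near copies that may share reads, had no UMI in Hevin members, whereas mCherry members held 18 UMIs of Tgtp1 and 15 of Tgtp2. The genes that interferon gamma is best known to induce in macrophages were rare: Ciita had 1 UMI in all members, Cxcl9 had 1, Nos2 had 3 and Ido1 had 0.

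Genes of antigen presentation were higher in part. Of 14 genes of the class I pathway Psmb9, H2-T22 and H2-T23 were 2-fold in every library and the other 11 were not; the median log2 ratio was 1.33. H2-K1, a classical class I heavy chain, had 1130 and 1071 CPM in Hevin members and 939 and 998 CPM in mCherry members, against 568 and 438 CPM in other Hevin and 346 and 358 CPM in other mCherry microglia. B2m, the light chain, had 8337 and 8290 CPM in Hevin members and 6297 and 7470 CPM in mCherry members, against 5275 and 5044 CPM in other Hevin and 4544 and 4871 CPM in other mCherry microglia. None of the 6 class II genes was 2-fold in every library, and the median log2 ratio was -0.06. Cd74, the class II invariant chain, had 106 and 349 CPM in Hevin members and 824 and 157 CPM in mCherry members, against 183 and 186 CPM in other Hevin and 167 and 136.5 CPM in other mCherry microglia; in mCherry replicate 1 it went with 4 members that held at least 10 UMIs of class II genes.

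Of 7 chemokine genes Ccl12, Ccl2 and Ccl7, ligands of CCR2 that draw monocytes, were higher in all 4 member libraries. Ccl2 and Ccl7 rested on few cells. Ccl2 was found in 21 members, with 1 UMI in Hevin replicate 1. Ccl7 had 18 UMIs in 7 members, with 9 in 1 cell and 1 UMI in mCherry replicate 2. Ccl12 had 7065 and 3862 CPM in Hevin members and 2865 and 2567 CPM in mCherry members, against 299.5 and 232.5 CPM in other Hevin and 172.5 and 163 CPM in other mCherry microglia. It was found in 88 members (87.1%, median depth 3830 UMIs) and in 40.4% of other gated microglia (median depth 3337 UMIs), and a single member held 104 of its UMIs.

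Several other programs held no gene past the fold. Over all genes at the minimum level only 1.28% were higher and 0.669% lower. Short lists, here and above, could hold none at that share. None of 17 disease-associated and developmental genes was 2-fold in every library, and none of 18 phagocytosis, 10 NF-kappa-B, 7 dissociation-induced or 7 cell division genes was; their median log2 ratios were 0.16, -0.09, 0.34, 0.14 and -0.46. Trem2, a lipid receptor of microglia, had 1978 and 1973 CPM in Hevin members and 1919 and 1921 CPM in mCherry members, against 1773 and 1799 CPM in other Hevin and 1962 and 1883 CPM in other mCherry microglia. Axl, a receptor for phosphatidylserine bridged by Gas6, had 70.7 and 24.1 CPM in Hevin members and 81.1 and 62.8 CPM in mCherry members, against 40.6 and 28.2 CPM in other Hevin and 9.14 and 7.81 CPM in other mCherry microglia, so it was over 2-fold in the mCherry libraries alone.

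**Figure D3:**
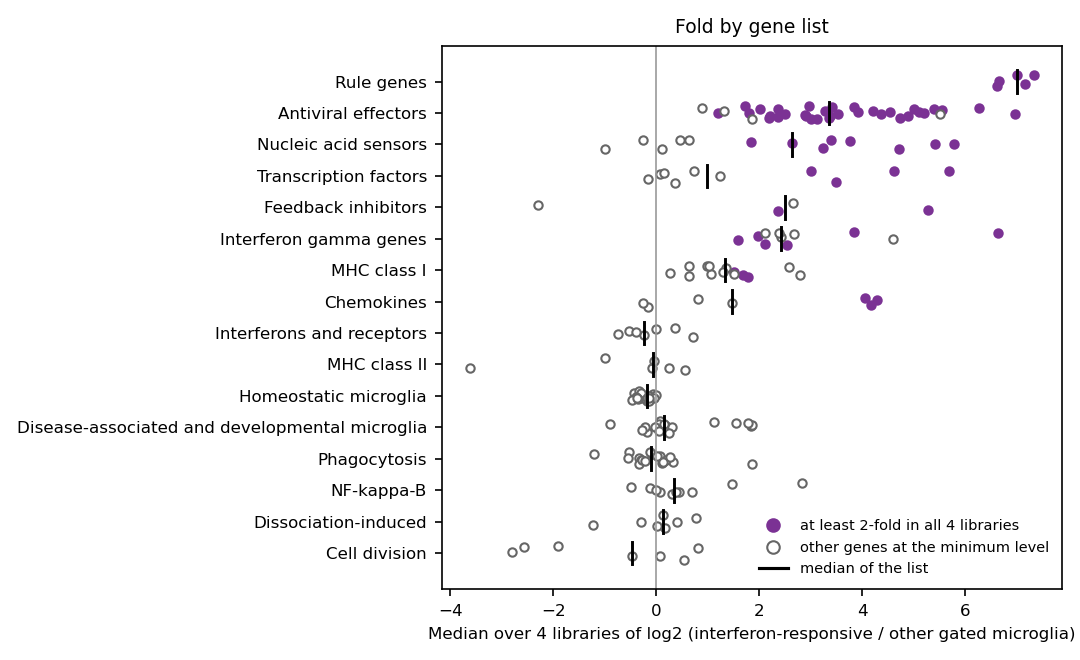
Median over the 4 libraries of the log2 ratio of CPM in members to other gated microglia (0.5 CPM added), with a point for each gene at the minimum level and a bar at the list's median; filled points were at least 2-fold in all 4 libraries. The antiviral effectors centre on 3.36, the homeostatic microglial genes on -0.18 and the list of interferons and receptors on -0.24. No interferon gene of that list reached the minimum level.

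The 20 genes with the largest median ratio were, with their log2 values, Ifit3 (7.34), Cxcl10 (7.16), Rsad2 (7.02), Ifit1 (6.97), Ifit2 (6.67), Iigp1 (6.63), Isg15 (6.62), Ifit3b (6.28), Ifi206 (5.99), Zbp1 (5.79), Ifi209 (5.73), Irf7 (5.69), Cmpk2 (5.55), Ifi204 (5.42), Oasl1 (5.39), Ifi208 (5.30), Phf11a (5.29), Usp18 (5.28), Slfn5 (5.21) and Ifi213 (5.17). Ifi204, Ifi206, Ifi208, Ifi209 and Ifi213 belong to a cluster of related genes for DNA-binding PYHIN proteins on chromosome 1, where reads of near copies may be shared. The promoters of 11 of the 16 leading genes with an entry in the RefSeq table held the GAAANNGAAA repeat on either strand, as did 35 of the 89 higher genes with an entry (39.3%), against 256 of 7306 genes at the minimum level (3.50%). Both the leading and the higher genes include the 5 genes of the rule, of which 4 held a match. The windows of Irf7, Cmpk2, Oasl1 and Ifi209 held no match to these letters.

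Of the 117 higher genes 64 stood on the lists of interferon, class I or chemokine genes and 53 did not. The 53 included Fcgr4 and Fcgr1, activating receptors for antibody. Fcgr1 averaged 1157 CPM in members and 361.5 CPM in other gated microglia, and Fcgr4 averaged 216 CPM in members and 21.7 CPM in other gated microglia. Others were Adar, which edits double-stranded RNA, the ubiquitin-conjugating enzyme Ube2l6 that works with ISG15, the ADP-ribosyl transferases Parp10 and Parp12, Tspo, a mitochondrial protein used to image activated microglia, and Il27, a cytokine subunit that rested on 10 UMIs. These genes outside the lists were picked after their values were seen.

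**Figure D4:**
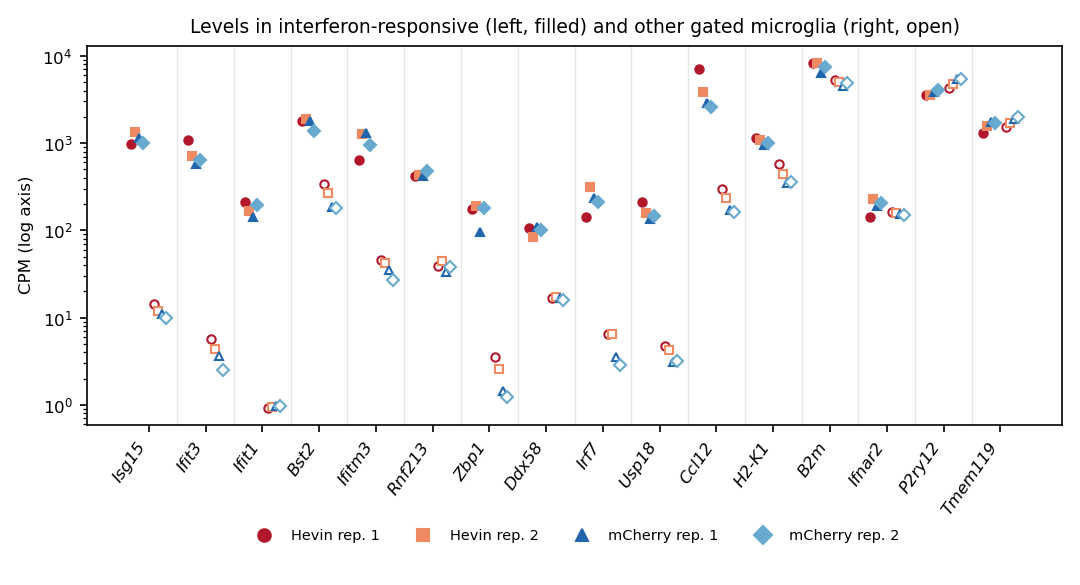
CPM (log axis) of 16 genes in members (filled, left of each pair) and in other gated microglia (open, right), with a symbol for each library. Isg15 and Ifit3, which the rule used, and Ifit1, which it did not, separate the classes most, with median log2 ratios of 6.62, 7.34 and 6.97. B2m and H2-K1 differ less, and Ifnar2, P2ry12 and Tmem119 lie at like levels in both.

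Markers of other cell types were present in some members. At least 5 UMIs of some other cell type's markers, or at least 10 of class II genes, were found in 16 of 101 members (15.8%) and in 6.50% of other gated microglia when the monocyte marker Plac8 was left out of the count, and in 24 members (23.8%) and 6.555% of other gated microglia when it was counted. In the 16 members these were class II genes in 6 cells, border macrophage markers in 4, neutrophil markers in 3, astrocyte markers in 2 and dendritic, endothelial and erythroid markers in 1 cell each, the endothelial cell holding 57 UMIs. Lymphocyte markers summed to 0 CPM in members of all 4 libraries. Of the 7 monocyte markers 4 had no UMI in any member, Ly6c2, Vcan and Chil3 among them, whereas Plac8 had 147 UMIs in 46 members. The 7 summed to 141 and 96.25 CPM in Hevin members and 486.5 and 471 CPM in mCherry members, against 36.3 and 34.3 CPM in other Hevin and 39.9 and 41.6 CPM in other mCherry microglia. Without the 16 cells 118 genes were higher, of which 105 were among the 117. No doublet caller was run; without the top 5% of cells by UMIs 125 genes were higher, 115 of them among the 117.

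Many of these genes were also higher in another population of the Hevin libraries. Cells with Apoe at 1% of UMIs or more and few border macrophage UMIs were abundant there, and 107 of 10360 (1.03%) in Hevin replicate 1 and 78 of 5657 (1.38%) in Hevin replicate 2 had at least 5 UMIs of the 5 genes; the mCherry libraries had 4 of 163 and 1 of 81. Set against Apoe-high cells below the bound, 234 of 8823 genes (2.65%) were at least 2-fold higher in both Hevin libraries. Of these 102 were also among the 117 genes of the microglia, which is 87.2% of the microglial list and 43.6% of the Apoe-high list. The shared genes include the 5 genes that set the bound on both sides. Isg15, which the bound counts, had 1123 and 995 CPM in Apoe-high cells above the bound and 31.0 and 27.0 CPM in those below it. Ifit1, which the bound does not count, had 136 and 111 CPM above it and 3.80 and 3.67 CPM below it. Members and Apoe-high cells above the bound differed in identity genes: in the Hevin libraries P2ry12, which the rule bounds, had 3533 and 3513 CPM in members and 809 and 900 CPM in Apoe-high cells above the bound, and Sall1 had 106 and 253 CPM in members and 20.8 and 18.5 CPM in those cells. No test was made, as the bound chose both sets. Cells with at least 5 UMIs of the 5 genes also occurred elsewhere in all 4 libraries. Past the bound on border macrophage genes they were 0.94% and 1.76% in Hevin and 2.60% and 2.73% in mCherry libraries. Endothelial-like cells had at least 10 UMIs of 7 endothelial markers and P2ry12 below its bound. Of these they were 3.21% and 6.37% in Hevin and 7.27% and 5.95% in mCherry libraries. Depth was not matched, and no gene was compared there.

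Within members, Hevin and mCherry libraries were compared on summed counts with edgeR's quasi-likelihood test, in which 2163 genes had enough counts. With Benjamini-Hochberg adjusted p below 0.05 as the threshold, 3 genes were higher (0.139%) and 1 was lower (0.0462%) with Hevin, 4 in all (0.185%). Apoe, 1 of the higher genes, is bounded from above by the gate that chose the cells, so its p is no test. The remaining 3, Ccl12, Rplp1 and Plac8, were not called by DESeq2, with adjusted p of 0.129 for Ccl12, 0.0862 for Rplp1 and 0.9997 for Plac8. Nor did edgeR call them without the 16 members that held markers of other cell types, with adjusted p of 0.151 for Ccl12, 0.0673 for Rplp1 and 0.109 for Plac8. At an unadjusted p below 0.05 there were 133. The self-test on simulated counts of this comparison called 149 of 178 genes changed by 2 on the log2 scale, and 3 unchanged genes. It gave every gene the same dispersion, so a spread that differs between genes was not simulated. In the real counts the interferon genes themselves were not among the 4 called.

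None of 31 effector genes tested passed the threshold in either direction, and their median log2 fold change of Hevin over mCherry was 0.26, with 23 positive and 8 negative. Over all genes tested the median was -0.01, with 1061 of 2163 positive. None of 10 sensors, 6 transcription factors, 11 class I genes or 17 homeostatic genes passed either, with medians of 0.20, -0.07, 0.25 and -0.08. Bst2 had TMM-scaled levels (CPM after edgeR's scaling between libraries) of 2309 and 2448 in Hevin members and 2280 and 1722 in mCherry members, a log2 fold change of 0.26 ± 0.18 (SE). In other gated microglia 35 of 37 effector genes had positive fold changes, against 8032 of all 17026 genes tested. The effectors' median was 0.29, against -0.01 for all genes, again with none past the threshold. Groups of this size leave such small shifts unresolved, and a missed threshold does not show that the levels were equal.

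Ccl12 was higher in Hevin members. It had TMM-scaled CPM of 9054 and 4974 in Hevin members and 3621 and 3200 in mCherry members (mean 7014 ± 2885 and 3411 ± 297, SD, n = 2 each), a log2 fold change of 0.99 ± 0.18 (SE) with an adjusted p of 0.00272 by edgeR. A few cells carried much of it: the richest cell held 73 of 200 UMIs in Hevin replicate 1, 104 of 321 in Hevin replicate 2, 87 of 424 in mCherry replicate 1 and 45 of 409 in mCherry replicate 2. Without the richest cell of each library the plain levels were 4991 and 2698 CPM in Hevin members and 2323 and 2339 CPM in mCherry members. Without Hevin replicate 1 the log2 fold change was 0.55 with an edgeR adjusted p of 0.330, and in cells with at least 3000 UMIs it was 0.40 with an adjusted p of 0.681. In other gated microglia Ccl12 had a log2 fold change of 0.71 ± 0.12 (SE) with an edgeR adjusted p of 0.219, and the difference between the classes was 0.05 ± 0.17 (SE; adjusted p = 1.0). Here and below, that difference comes from a fit that scaled both classes together. It need not equal the gap between the separately fitted fold changes.

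Rplp1, a protein of the ribosomal stalk, was also higher in Hevin members. It had 4889 and 5407 TMM-scaled CPM in Hevin members and 2775 and 2825 in mCherry members (mean 5148 ± 366.5 and 2800 ± 35.1, SD, n = 2 each), a log2 fold change of 0.89 ± 0.15 (SE) with an edgeR adjusted p of 0.00149. It was found in all 101 members, with no cell holding more than 38 UMIs. Other gated microglia had a log2 fold change of 0.71 ± 0.09 (SE; edgeR adjusted p = 0.110), and the difference between the classes was -0.01 ± 0.18 (SE; adjusted p = 1.0). The classes were fitted separately, over 2163 genes in members and 17026 in other gated microglia. Each fit estimated spread across its own genes, so an adjusted p in 1 class does not rank its effect against the other class. The call was lost without Hevin replicate 2 (adjusted p = 0.384 by edgeR).

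Plac8, a small cysteine-rich protein found in monocytes and other leukocytes, was lower in Hevin members. It had 181 and 124 TMM-scaled CPM in Hevin members and 572 and 532 in mCherry members (mean 152.5 ± 40.4 and 552 ± 28.3, SD, n = 2 each), a log2 fold change of -1.97 ± 0.39 (SE) with an edgeR adjusted p of 0.0074. Plac8 was itself among the 117 genes higher in members, with a median log2 ratio of 4.18 over other gated microglia. It was found in 2 of 9 and 4 of 22 Hevin members and in 20 of 36 and 20 of 34 mCherry members, with 4 and 8 UMIs in Hevin and 67 and 68 UMIs in mCherry. Of the other monocyte markers with any UMI in members, Ccr2 had 3 and S100a4 had 9. The call was lost without Hevin replicate 2 (adjusted p = 0.608 by edgeR). In other gated microglia its log2 fold change was -0.56 ± 0.15 (SE; edgeR adjusted p = 0.538), and the difference between the classes was -1.61 ± 0.57 (SE; adjusted p = 1.0).

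The remaining gene past the threshold was Apoe, a lipid carrier that the gate bounds from above, so its levels are given without a test. Apoe had 7741 and 4059 TMM-scaled CPM in Hevin members and 1853 and 2089 in mCherry members, and 4664 and 3256 in other Hevin against 1495 and 1260 in other mCherry microglia. The groups did not overlap in either class. The median member of the Hevin libraries had 0.651% and 0.266% of its UMIs from Apoe and the median mCherry member 0.102% and 0.134%, and the Hevin libraries were those rich in Apoe-high cells. The part of free Apoe mRNA from those cells was not tested. Cxcl10, which the rule also used, had 317 and 279 TMM-scaled CPM in Hevin members and 333 and 1205 in mCherry members, and mCherry replicate 2 alone was high.

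Other genes by smallest unadjusted p were below the threshold and are given as values. Pip4k2b, a lipid kinase, had 498 and 465 TMM-scaled CPM in Hevin members and 231 and 149 in mCherry members (edgeR adjusted p = 0.191). A single cell held 10 of its 11 UMIs in Hevin replicate 1 and 16 of 30 in Hevin replicate 2. In the mCherry libraries the richest cell held 7 of 27 and 7 of 19. Lyz2, lysozyme of myeloid cells, had 860 and 682 in Hevin members and 384 and 360 in mCherry members (edgeR adjusted p = 0.437). Med12l, a subunit related to Mediator, had 45.3 and 77.5 in Hevin members and 342 and 274 in mCherry members (edgeR adjusted p = 0.0845), Pon2, a lactonase, had 45.3 and 31.0 in Hevin members and 222 and 172 in mCherry members (edgeR adjusted p = 0.398), and Eif4a1, a helicase of translation initiation, had 136 and 279 in Hevin members and 538 and 501 in mCherry members (edgeR adjusted p = 0.544). These genes were named by smallest p alone, and groups that do not overlap were asked only of genes past the threshold.

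**Figure D5:**
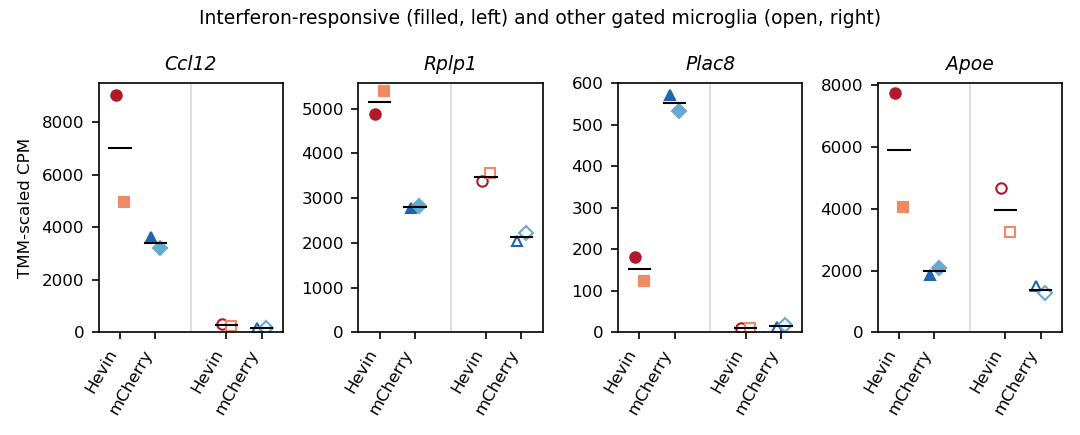
TMM-scaled CPM of the 4 genes past the threshold in Hevin and mCherry libraries, in members (filled, left) and other gated microglia (open, right), with bars at the means of 2 libraries; the classes were scaled separately. Plac8 averaged 152.5 in Hevin and 552 in mCherry members, and Apoe, which the gate bounds, is shown as a description.

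No gene's response to Hevin was shown to differ between members and other gated microglia. In the other gated microglia alone 0 of 17026 genes (0.0%) passed the threshold by edgeR, 942 having an unadjusted p below 0.05, and DESeq2 called 140. In the test of the difference, with the library as a block, 0 of 13634 genes (0.0%) passed by edgeR, and 399 had an unadjusted p below 0.05. With at least 3 UMIs of the 5 genes as the bound, 9 genes passed this test, and with the 5 genes at 0.15% of UMIs or more, 8 did. The smallest p-values belonged to H2-Ab1, Axl, Cd74, Pon2 and Dennd1c among genes with a lower fold in members, and to Chic2, Psmd5, Bin3, Commd7 and Cab39l among those with a higher one. H2-Ab1, a class II chain, had 0 and 0 UMIs in Hevin members and 25 and 3 in mCherry members, so that 1 library held most of it. Axl had 56.2 and 23.2 TMM-scaled CPM in Hevin members and 81.7 and 62.0 in mCherry members. Other gated microglia, scaled separately, had 41.2 and 28.7 in the Hevin libraries and 8.96 and 7.725 in the mCherry libraries. For the difference between the classes the edgeR adjusted p was 0.686. On simulated counts with the same dispersion for every gene, this test called 24 of 197 genes whose effect differed by 2 on the log2 scale. It missed most differences of that size.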

How the data were processed

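For each library the authors deposited a sparse matrix of raw UMI counts. Reads had been placed on mm10, per the submitters' processing notes. Which aligner and counting program made the counts, whether strand was used and how cells were called is not given in the sources used here. Cells were gated by the rule in the opening. Counts were summed over the cells of a class in each library, since cells are not replicates. Ratios of members to other gated microglia had no test. Hevin and mCherry were compared with edgeR 4.0.16 (quasi-likelihood, TMM, filterByExpr, group as the sole term) in R 4.3.3, adjusted over all genes tested at 0.05, and checked on simulated counts; DESeq2 1.42.0 was an alternative. Shares were tested by exact permutation over libraries. The gene lists and members were chosen with earlier results of these data known. Named genes were the 20 with the largest ratio in all 4 libraries, the genes past the threshold with groups that do not overlap, filled up to 5 per direction by smallest p, and genes of the lists; the 10 lowest ratios are left out, as each rested on at most 2 UMIs in members. Alternatives changed scaling, the filter on low counts, the bound, depth and each library in turn. Counts per library limit the precision: the members' sums held 28308 and 83114 UMIs in Hevin and 148005 and 159303 UMIs in mCherry libraries, and intervals cover counting error only. Some genes are not reported here, though counts over lists and over all genes hold them. Promoters came from a RefSeq table of GRCm38.p6.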

Additional observations from a re-analysis of the deposited data

How the results depend on the processing

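Depth limits the summed counts of members in Hevin replicate 1, where 9 cells held 28308 UMIs. The difference in share (Hevin minus mCherry, main value -0.0410 percentage points) turned positive with a bound of 3 UMIs (0.0883), of 10 UMIs (0.00717) or of 0.15% of UMIs (0.0352), in cells with at least 3000 UMIs (0.000658) and after thinning to 2000 UMIs (0.0119), and lay between -0.1652 and 0.08315 when a library was left out (positive at 0.08315 without Hevin replicate 1 and at 0.0243 without mCherry replicate 2). Counting any kept cell with at least 5 UMIs, added after the data were seen, gave 0.214 points. Of the genes called between Hevin and mCherry in members (4), DESeq2 called 1 (Apoe, which the gate bounds), cells with at least 3000 UMIs gave 2, leaving out 16 cells with markers of other types, also added later, gave 1 (again Apoe), and leaving out a library gave 3 to 11. In other gated microglia (0) the count was 352 without the filter on low counts, 2 at a mean of 10 CPM, 140 with DESeq2 and 4 to 229 without a library. The test of the difference (0) gave 9 with a bound of 3 UMIs, 8 with 0.15% of UMIs and 0 to 1 without a library. The 117 genes higher in members became 75 in cells with at least 3000 UMIs, 77 at a mean of 100 CPM (added later), and 144 to 174 without a library; the 61 lower genes became 14, 817 and 105 with bounds of 3 UMIs, 10 UMIs and 0.15% of UMIs, 2 at 100 CPM and 96 to 274 without a library. The cause of these changes was not tested. Lyz2 in members changed sign at a bound of 3 UMIs (-0.17). With a library left out, the fitted difference of the Hevin effect ranged from -10.46 to 13.03 for Bin3 (negative without Hevin replicate 2, the extremes resting on counts of 0) and from -2.71 to 0.25 for Cd74 (positive without mCherry replicate 1).

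Replicate numbers are shared between the groups, but nothing in the labels pairs them, and deviations of same-numbered libraries correlated at 0.0439 in members and 0.438 in other gated microglia over 2 pairs. With the replicate block 4 genes were called in members and 638 in other gated microglia.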
